A study of Mus musculus with 6 samples.

Results

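The uncoupling protein genes Ucp1, Ucp2 and Ucp3 were examined in the inguinal fat, a white depot under the skin, of mice lacking the transcription factor Atf7. The members were all probe sets annotated to these 3 genes, taken by gene symbol and not by any measured value. Ucp1 (probe set 10573152) and Ucp3 (probe set 10555378) had 1 probe set each, and they are 2 of the 19937 genes tested. The annotation used here pairs no probe set with Ucp2, so Ucp2 was not analysed here and the contrasts that involve it are not given. The study hybridised RNA of 3 wild-type (WT) and 3 Atf7 knockout (KO) animals, 1 array per mouse, all males of strain C57BL/6 aged 5 weeks. KO and WT mice were littermates from matings of Atf7 heterozygotes. No treatment, cold exposure or drug is given for either group, and the housing temperature is described only as controlled. The part of Atf7 that the allele removes is not given in the sources used here.

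Uncoupling proteins are carriers of the mitochondrial inner membrane and belong to the SLC25 family. UCP1 lets protons return to the matrix without making ATP, so that respiration releases heat. Free fatty acids activate it and purine nucleotides inhibit it, and its gene is the classic marker of brown fat and of the beige adipocytes that can arise in the inguinal depot. UCP3 is known mainly from skeletal muscle and brown fat, where its gene responds to fatty acids through PPAR receptors, and UCP2 is found in many tissues and in immune cells. Whether UCP2 and UCP3 have a role in heat production is not settled.

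Both genes analysed here were higher in the KO mice, Ucp1 by 7.49-fold and Ucp3 by 1.72-fold. Values are log2 expression values per array from RMA, a method that corrects background, normalizes arrays to each other and summarizes probes. A difference of 1 on this scale is therefore a doubling. Neither gene passed an adjusted p of 0.05 over all genes in limma, a linear model with variances moderated across genes. No other gene passed either (0% of genes tested, against 1489 at an unadjusted p under 0.05). In both genes the lowest KO array was above the highest WT array, which was so for 7.96% of genes, while 5.97% had all KO arrays below.

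The level of Ucp1 was 7.04, 5.97 and 6.05 in WT replicates 1, 2 and 3. In KO replicates 1, 2 and 3 it was 9.36, 8.76 and 9.65. The groups did not overlap, and the lowest KO array lay 1.72 above the highest WT array, a gap wider than the whole range of either group (1.06 in WT and 0.89 in KO). Means were 6.35 ± 0.59 in WT and 9.26 ± 0.45 in KO (SD, n = 3). The log2 difference was 2.91 (SE 0.33, 95% interval 2.12 to 3.69), or 4.35-fold to 12.9-fold on the linear scale. Limma gave an unadjusted p of 4.75e-05 and an adjusted p of 0.237 over 19937 genes. The exact permutation test of the means, two-sided, gave 0.1, the smallest p that 3 arrays against 3 allow. Ranked by the log2 difference, Ucp1 was number 1 of all genes on the side higher in KO, and it ranked 4 by p.

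The level of Ucp3 was 8.40, 7.99 and 7.55 in WT replicates 1, 2 and 3. In KO replicates 1, 2 and 3 it was 8.72, 8.52 and 9.04. The groups did not overlap here either, but they nearly touched, with 0.12 between KO replicate 2 and WT replicate 1. Means were 7.98 ± 0.43 in WT and 8.76 ± 0.26 in KO (SD, n = 3). The log2 difference was 0.78 (SE 0.23, 95% interval 0.24 to 1.32), or 1.18-fold to 2.51-fold. Limma gave an unadjusted p of 0.0112 and an adjusted p of 0.622, and the exact permutation test, two-sided, gave 0.1. Ucp3 ranked 48 among all genes by the size of a difference higher in KO, and 267 by p. At an unadjusted p under 0.05, 4.99% of all genes were higher in KO and 2.48% lower.

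**Figure D1:**
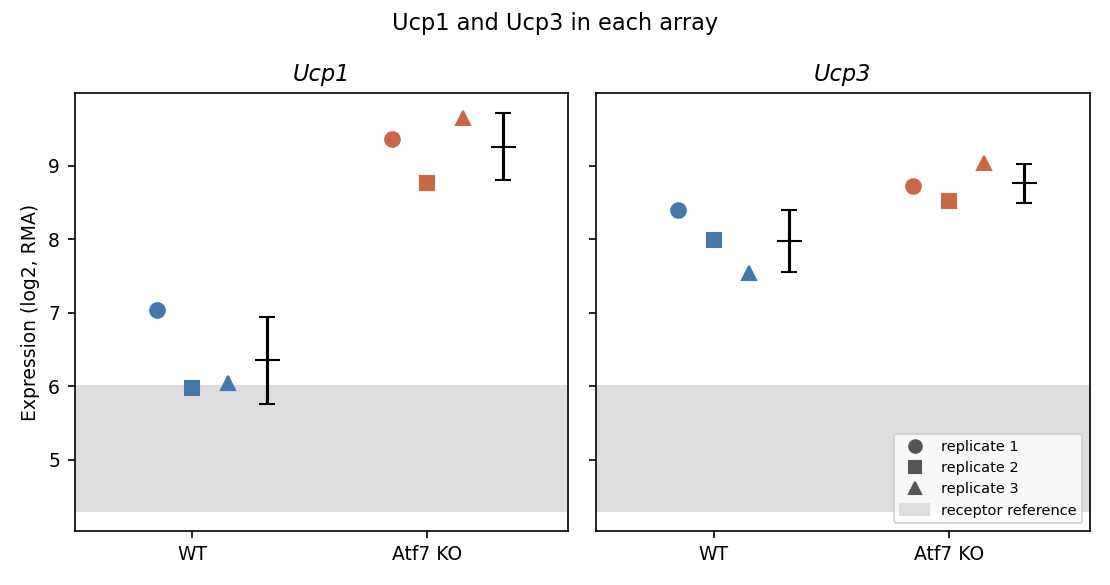
Log2 expression of Ucp1 and Ucp3 in each array (points, shaped by replicate), with the group mean and SD (black, n = 3). The grey band runs from the lowest median to the highest 95th percentile of the chemosensory receptor probe sets over the 6 arrays; the Ucp1 points of WT replicates 2 and 3 lie at its upper edge, and all other points lie above it.

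The brightness of a probe set depends on its own probes as well as on RNA amount, so the level of Ucp1 was not compared with that of Ucp3. Each was instead placed beside 1243 probe sets of olfactory, vomeronasal and taste receptor genes, which are not known to be active in fat. The 95th percentile of these receptors lay between 5.70 and 6.00 over the 6 arrays, and their median between 4.31 and 4.66. In WT replicates 2 and 3 the level of Ucp1 (5.97 and 6.05) was at this upper edge, above 97.4% and 95.4% of the receptor probe sets. In WT replicate 1 it was above 99.5%, and in the KO arrays above all of them. Ucp3 was above 99.8% to 100% of the receptor probe sets, WT arrays included. Both genes were thus above the receptors' 95th percentile of the same array in every array. For Ucp1 that percentile was near in WT replicates 2 and 3 (5.97 against 5.70 and 6.05 against 6.00). A WT level so near the reference leaves the size of the Ucp1 fold less certain than that of Ucp3.

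Ucp1 differed more between the genotypes than Ucp3 in these arrays. The difference between the values of Ucp1 and Ucp3 within an array was -1.36, -2.02 and -1.50 in WT replicates 1, 2 and 3. It was 0.64, 0.24 and 0.61 in the KO replicates, so the groups did not overlap. It was higher in KO by 2.12 on the log2 scale, which makes the fold of Ucp1 4.36 times the fold of Ucp3. The exact permutation p, two-sided, was 0.1, the smallest this design allows, and only this 1 contrast was tested. Leaving out each array in turn, the value lay between 1.93 and 2.26.

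The order of the mice within a genotype was partly shared by both genes. In KO, replicate 3 was highest, replicate 1 in the middle and replicate 2 lowest for Ucp1 and Ucp3 alike. In WT, replicate 1 was highest for both, while the lowest was replicate 2 for Ucp1 and replicate 3 for Ucp3. Without WT replicate 1 the log2 differences were 3.25 for Ucp1 and 0.99 for Ucp3. Over the 6 arrays left out in turn, the Ucp1 difference lay between 2.71 and 3.25 and the Ucp3 difference between 0.57 and 0.99.

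Several facts on the arrays bear on these values. Atf7 itself, the targeted gene, was 8.95, 9.20 and 9.07 in the WT arrays and 6.22, 6.53 and 6.49 in the KO arrays for probe set 10433032, which fell by 2.66 on the log2 scale (adjusted p 0.00658 in the limma fit over all probe sets). That adjusted p was 0.0745 without WT replicate 1, 0.147 without WT replicate 3, 0.0792 in a fit blocked on replicate number and 0.105 with a lymphocyte score in the model. The other Atf7 probe set, 10433034, was 9.34, 9.39 and 9.52 in WT and 9.23, 9.10 and 9.42 in KO, so the groups overlapped. Its difference was -0.17 (adjusted p 0.730 in that fit), and being brighter it stood for Atf7 in the fit per gene. Since the deleted part is not given, that probe set does not check the labels. KO replicate 3 stood apart, with correlations of 0.969 to 0.981 with the other arrays across probe sets, against 0.984 to 0.990 among the other 5. The adipocyte markers were bright in both groups, for example the lipid droplet coat gene Plin1 (11.78 in WT and 11.94 in KO) and the hormone-sensitive lipase gene Lipe (12.16 and 12.31). Of 9 adipocyte markers measured, 5 were positive and 0 passed an unadjusted p of 0.05. Among the markers of the classical brown depot, Zic1 was at 4.99 in both groups, inside the receptor range, and Lhx8 at 6.44 in WT and 6.36 in KO. Neither of these differed at an unadjusted p under 0.05.

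Markers of other cell types differed between the arrays that carry the Ucp values. In a bulk sample, fewer cells of a type and less RNA per cell cannot be told apart. Each gene of a list was centred over the 6 arrays, and the average of the centred genes on an array is called the level of the list there. T cell markers (14 of 14 lower in KO, median difference -1.21) were at -2.03 in KO replicate 3 and at -0.27 and 0.57 in KO replicates 1 and 2, against 0.48 to 0.70 in WT. B cell markers (10 of 11 lower, median -1.58) were at -3.05 in KO replicate 3, 0.10 and 0.74 in KO replicates 1 and 2, and 0.56 to 0.84 in WT. Without KO replicate 3 the medians were -0.43 and -0.34. KO replicate 3 also had the highest values of Ucp1 and Ucp3. KO replicate 2, whose T and B cell levels lay within the WT range, had Ucp1 at 8.76 and Ucp3 at 8.52. Without KO replicate 3 the differences were 2.71 for Ucp1 and 0.64 for Ucp3, and they were 2.60 and 0.57 when a score over both lymphocyte lists entered the model as a covariate, the latter with an unadjusted p of 0.0547.

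Skeletal muscle, a site of Ucp3 expression, can be carried over in dissected fat. The level of 22 muscle markers was 1.73 in WT replicate 2, 1.12 in KO replicate 1 and 0.40 in WT replicate 3. It was -1.02 in KO replicate 2, -1.10 in KO replicate 3 and -1.12 in WT replicate 1. Ucp3 was 7.99 in WT replicate 2, 8.72 in KO replicate 1 and 7.55 in WT replicate 3. It was 8.52 in KO replicate 2, 9.04 in KO replicate 3 and 8.40 in WT replicate 1. Of the 22 markers 4 were positive, with a median difference of -0.71. With gene-by-gene array weights 21 were positive and the median was 0.51, so the direction of this list was not settled. The median was -1.35 when WT replicate 1 was left out, -0.04 when WT replicate 2 was, -1.34 when KO replicate 1 was and -0.27 when KO replicate 3 was. With the muscle score as a covariate the difference was 0.72 for Ucp3 and 2.78 for Ucp1. Macrophage markers were 12 of 16 positive, with a median difference of 0.18. Of the 16, 1 passed an unadjusted p of 0.05 as higher, against 4.99% of all genes. Without WT replicate 2, 8 were positive and the median was 0.0077, and without WT replicate 1 or KO replicate 1 the median was 0.06, with 0 past that threshold in each case. Their levels ran from -0.15 to 0.34 in KO and from -0.30 to 0.28 in WT.

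**Figure D2:**
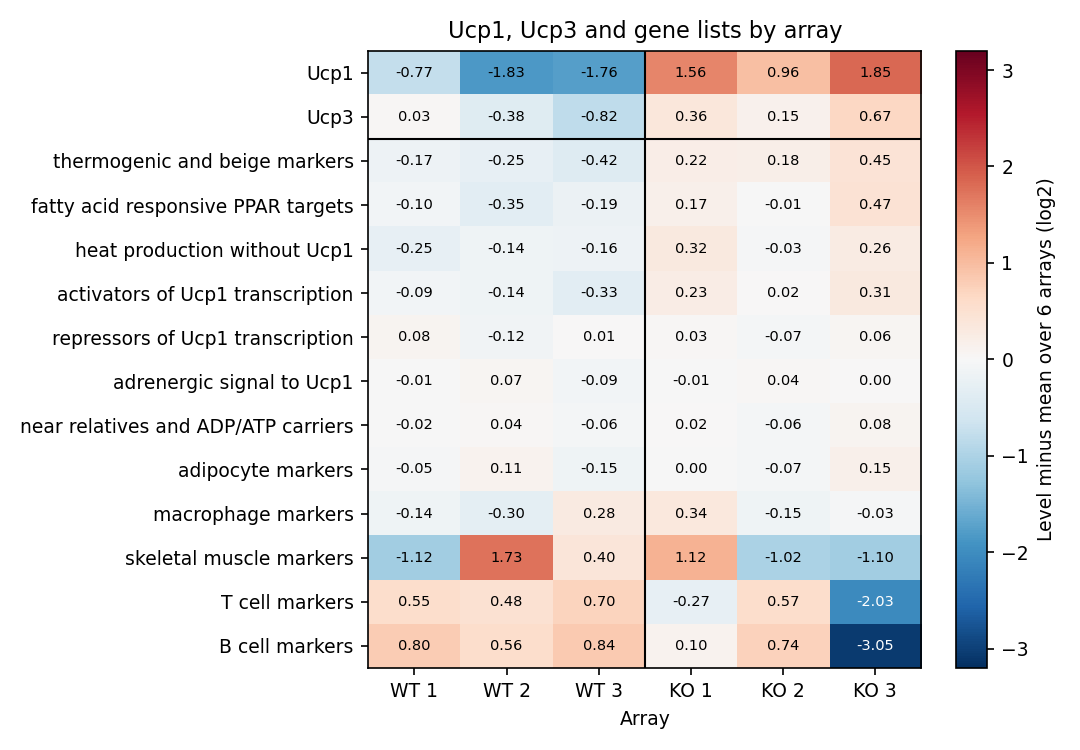
Level of Ucp1, Ucp3 and 12 gene lists in each array, as log2 value minus the mean over the 6 arrays (colour and number), WT on the left and KO on the right. The thermogenic list follows the split between genotypes as both Ucp genes do, while muscle markers do not, and T and B cell markers are lowest in KO replicate 3.

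The sequence upstream of each gene is shown because the deleted factor belongs to the ATF/CREB family, whose members bind the cyclic AMP response element (CRE) and its core. The RefSeq promoter windows (build GRCm38.p6, 250 bases before to 50 after the start, 300 bases in all) were searched on both strands for the full CRE TGACGTCA, its core TGACG, which the full CRE contains, the AP-1 site TGAGTCA, the TATA box TATAAA and the GC box GGGCGG. The 250 bases before the start are printed 5′ to 3′ on the plus strand, with matches in capitals. Ucp1 lies on chromosome 8 and the window shown is chr8:83290098-83290347. For Ucp3, on chromosome 7, it is chr7:100472741-100472990.
Ucp1: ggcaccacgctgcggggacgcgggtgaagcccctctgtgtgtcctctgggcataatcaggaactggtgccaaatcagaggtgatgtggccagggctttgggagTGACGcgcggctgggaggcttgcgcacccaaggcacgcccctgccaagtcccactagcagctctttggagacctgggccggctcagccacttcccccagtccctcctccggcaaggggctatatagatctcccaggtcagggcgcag
Ucp3: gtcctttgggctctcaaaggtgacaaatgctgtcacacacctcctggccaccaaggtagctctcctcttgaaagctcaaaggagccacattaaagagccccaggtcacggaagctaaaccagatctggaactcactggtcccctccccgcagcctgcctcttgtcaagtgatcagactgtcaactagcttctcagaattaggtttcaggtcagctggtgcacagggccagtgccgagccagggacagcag

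Ucp1 had 1 CRE core, which begins 147 bases before its start. Ucp3 had 1 CRE core on the minus strand, 28 to 32 bases after its start and therefore outside the stretch printed. At least 1 core was present in 20.8% of the 32851 promoter windows of the table. Neither window held the full CRE, which 1.79% of windows did, nor the AP-1 site (5.2%), the TATA box in these letters (13.6%) or the GC box (35.7%). The Ucp1 stretch had 12 CpG dinucleotides and the Ucp3 stretch 3, against a median of 6 over all windows cut the same way. Of those windows 66.5% had fewer than Ucp1 and 29.0% fewer than Ucp3, so neither count was extreme. These matches describe letters in a short window, and distal enhancers, such as the known one upstream of Ucp1, lie outside it.

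Neighbouring genes did not show differences of the size seen for the members. In the RefSeq gene order Ucp3 and Ucp2 lie side by side on chromosome 7. The measured genes nearest to Ucp1 were Tbc1d9, with a log2 difference of -0.13 (SE 0.09), and Elmod2, with 0.27 (SE 0.25). Those nearest to the Ucp3 and Ucp2 pair were the predicted gene Gm10603 (0.02) and Dnajb13 (-0.07). In all 4 the groups overlapped, and their adjusted p from limma lay between 0.676 and 0.965. The Elmod2 difference was 0.0086 without KO replicate 3 and -0.13 with that lymphocyte score in the model.

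Carriers of the same family as the uncoupling proteins were close in both genotypes. Of 8 near relatives and ADP/ATP carriers, 5 were positive and 0 passed an unadjusted p of 0.05, with a median log2 difference of 0.04 against 0.01 over all genes. Slc25a4, the ADP/ATP carrier of heart and muscle, was 10.38 in WT and 10.55 in KO (difference 0.17, SE 0.14). That difference was 0.31 without WT replicate 2 (unadjusted p 0.0452 in limma), 0.084 without WT replicate 3 and 0.074 with the lymphocyte score. Slc25a14, also called UCP5, was 5.92 in WT and 5.83 in KO (difference -0.09, SE 0.14, and 0.05 without KO replicate 3). The differences in this list ran from -0.09 to 0.17.

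Genes that carry the adrenergic signal to Ucp1 differed little, and Adrb3, its main receptor in rodent fat, was not analysed here. Of 8 measured, 4 were positive and 4 negative, 0 passed an unadjusted p of 0.05 in either direction, and the median was 0.02. Adcy3, an adenylyl cyclase, differed by 0.26 (SE 0.15), which was 0.11 without KO replicate 3 and 0.053 with the lymphocyte score. Prkacb, a catalytic subunit of protein kinase A, differed by -0.16 (SE 0.09). Atf2, a close relative of Atf7 that acts on Ucp1 downstream of p38 kinase, differed by 0.17 (SE 0.09).

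Activators of Ucp1 transcription were mostly higher in KO. Of 21 measured, 19 had a positive difference. At an unadjusted p under 0.05, 8 were higher in KO (against 4.99% of all genes) and 0 lower (against 2.48%). In 9 the KO arrays all lay above the WT arrays (against 7.96%). None passed over all genes, with adjusted p-values from 0.622. The median was 0.32. At that unadjusted threshold 7 were higher without KO replicate 3, against 619 of 19937 genes. With the lymphocyte score in the model 6 were higher, against 466 of 19937 genes, and the median was 0.23. Foxc2, in both the 8 and the 9 above, was at 5.53 in WT and 5.78 in KO. It was under the receptors' 95th percentile of the same array throughout, as was Dio2, which is in the 9. Ppara, the fatty acid receptor that also acts on Ucp3, was 8.58, 7.73 and 7.54 in the WT arrays and 9.44, 8.95 and 9.48 in the KO arrays, a difference of 1.34 (SE 0.28). Its WT replicate 1 was the highest of the WT arrays, as for Ucp1 and Ucp3.

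Ppargc1a, the coactivator that drives mitochondrial biogenesis, was 7.60, 7.48 and 7.18 in WT and 8.13, 7.90 and 8.82 in KO. Its difference of 0.86 (SE 0.24) was 0.59 without KO replicate 3 and 0.47 with that lymphocyte score in the model. Ebf2, which marks precursors of thermogenic fat cells, differed by 0.65 (SE 0.15) and Esrrg, an oestrogen-related receptor, by 0.54 (SE 0.13). Pparg, the master factor of adipocytes, differed by 0.40 (SE 0.20) and Prdm16, a coregulator of brown and beige identity, by 0.24 (SE 0.16), both with overlapping groups. Pparg was at 0.61 without WT replicate 2 (unadjusted p 0.0087 in limma), 0.25 without WT replicate 3 and 0.21 with the lymphocyte score. Prdm16 was at 0.40 without KO replicate 2 (unadjusted p 0.0134 in limma), 0.13 without KO replicate 3 and 0.058 with the lymphocyte score. Dio2, which makes active thyroid hormone, was at 5.19 in WT and 5.44 in KO, under the 95th percentile of the receptors in both.

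Repressors of Ucp1 transcription were split between both directions. Of 10, 5 were positive and 5 negative, 0 passed an unadjusted p of 0.05, and the median was 0.01. Foxp1, a forkhead repressor, differed by -0.66 (SE 0.30), with KO replicate 3 lowest at 8.58, and by -0.30 without that array and -0.13 with the lymphocyte score. Rbl1, a retinoblastoma relative, differed by -0.25 (SE 0.12; -0.13 with the lymphocyte score), and Tle3, a corepressor that opposes Prdm16, by -0.18 (SE 0.08). The largest difference of this list was positive, that of Nr1d1 at 0.78 (SE 0.48), with WT replicate 2 lowest at 9.15. Twist1 was also higher in KO, by 0.36 (SE 0.17), and in both genes the groups overlapped.

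Of 25 thermogenic and beige markers other than the Ucp genes, 20 had a positive difference. At the same unadjusted threshold 13 were higher (against 4.99% of all genes) and 0 lower (against 2.48%), and in 14 the KO arrays all lay above the WT arrays (against 7.96%). The median was 0.46, and 13 were higher at that threshold without KO replicate 3 as well. The differences ran from -0.20 to 1.77, all smaller than the 2.91 of Ucp1. Cidea, a lipid droplet protein, differed by 1.59 (SE 0.23), Cox7a1, a cytochrome c oxidase subunit, by 1.51 (SE 0.17) and Slc27a2, a fatty acid transporter, by 1.77 (SE 0.27). The 5 members with a negative difference, named after their values were seen, were Tnfrsf9 (-0.20), Tmem26 (-0.13), Cited1 (-0.07), Elovl3 (-0.06) and Clstn3 (-0.02). None of these 5 passed that threshold, and all KO arrays lay below the WT arrays in Elovl3 alone. Elovl3 (4.95 in WT and 4.89 in KO) and Clstn3 (5.60 and 5.58) were under the receptors' 95th percentile of the same array in every array. Their differences, and the separation in Elovl3, are thus between values inside the receptor range. The difference of Cited1 was 0.33 without WT replicate 2 (unadjusted p 0.0412 in limma), and that of Tnfrsf9 was -0.44 without KO replicate 2 (unadjusted p 0.0142) and 0.097 with the lymphocyte score. Tnfrsf9, Tmem26 and Cited1 mark beige fat cells, and Elovl3 is a fatty acid elongase induced in brown fat by cold. The list shares Ppargc1a, Prdm16 and Dio2 with the activators, and its members were chosen with earlier results of these data known.

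**Figure D3:**
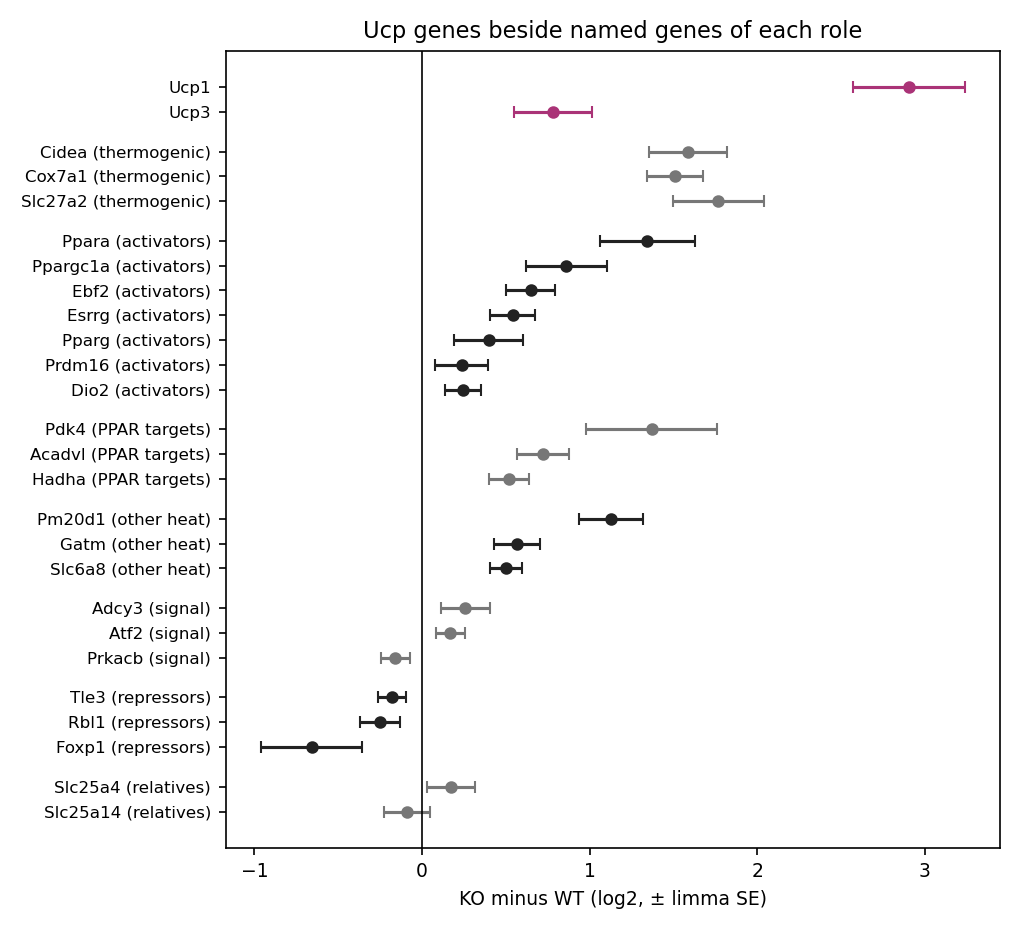
KO minus WT log2 differences (points) with limma's SE (bars) for Ucp1 and Ucp3 and for named genes of each role, 3 arrays per group. Ucp1, at 2.91, lies farthest to the right, and Ucp3, at 0.78, lies among the activators and PPAR targets. The repressors shown are all negative, and the positive Nr1d1 (0.78) and Twist1 (0.36) are not shown.

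Ucp3 is itself a PPAR-responsive gene, and of 15 other fatty acid responsive PPAR targets measured, 13 had a positive difference. At the same threshold 6 were higher (against 4.99% of all genes) and 0 lower (against 2.48%), and the median was 0.45. Those 6 became 4 without KO replicate 3, 4 without WT replicate 1 and 3 with the lymphocyte score in the model. Over all genes the number higher in KO was 995, which became 619 without KO replicate 3, 800 without WT replicate 1 and 466 with that score. The negative members, named after their values were seen, were the carnitine palmitoyltransferase Cpt1a (-0.17) and the acyl-CoA thioesterase Acot1 (-0.18), and neither passed that threshold. Pdk4, which restrains glucose oxidation, was 11.33, 9.82 and 11.03 in WT and 12.13, 11.70 and 12.46 in KO. Its difference of 1.37 (SE 0.39) was 0.92 without WT replicate 2. Acadvl and Hadha, enzymes of mitochondrial fatty acid oxidation, differed by 0.72 (SE 0.15) and 0.52 (SE 0.12).

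Genes of heat production without Ucp1 were measured beside it. Of 10, 9 had a positive difference. At the same threshold 4 were higher (against 4.99% of all genes) and 0 lower (against 2.48%), with a median of 0.35, and 3 were higher at that threshold without KO replicate 3. Pm20d1, which makes N-acyl amino acids that uncouple mitochondria, was 5.78, 5.58 and 5.69 in WT and 6.73, 6.47 and 7.24 in KO, a difference of 1.13 (SE 0.19). Its WT values were under the receptors' 95th percentile of their own arrays (5.97, 5.70 and 6.00), so the size of this difference is less certain. Genes of the creatine cycle, the creatine transporter Slc6a8 and the synthesis enzyme Gatm, differed by 0.50 (SE 0.10) and 0.57 (SE 0.13). No gene of this list passed over all genes, with adjusted p-values from 0.602.

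The 5 genes most like Ucp1 over the 6 arrays and the 5 most like Ucp3 had no gene in common. Lists this short can differ even where patterns are close. How like the genes of 1 list are to the other member was not tested. Likeness is Pearson's r over 6 arrays, among 3477 genes with an SD of at least 0.25, as a description. A difference between genotypes alone raises it, so r of the deviations from the group means is given beside it. For Ucp1 the 5 most alike were the inter-alpha-trypsin inhibitor gene Itih4 (r 0.994, 0.948 for deviations), the mitochondrial isocitrate dehydrogenase Idh2 (0.991 and 0.883), Slc27a2 (0.988 and 0.919), the sterol hydroxylase Cyp27a1 (0.986 and 0.816) and the thiolase Acaa2 (0.985 and 0.838). For Ucp3 they were the Ebf2 relative Ebf3 (0.995 and 0.987), the carbohydrate kinase Fggy (0.993 and 0.995), the tetraspanin Tspan18 (0.991 and 0.988), the nuclear envelope gene Syne2 (0.989 and 0.978) and Rusc2 (0.989 and 0.971). The 5 genes like Ucp1 differed by 0.53 to 1.97 between genotypes, and those like Ucp3 by 0.41 to 0.59.

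The direction of both members was the same under every alternative run. Over 16 alternatives the Ucp1 difference lay between 2.60 and 3.25 and the Ucp3 difference between 0.57 and 0.99. Adjusted p-values lay between 0.136 and 0.852 for Ucp1 and between 0.175 and 0.9996 for Ucp3, so neither passed in any of them.

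**Figure D4:**
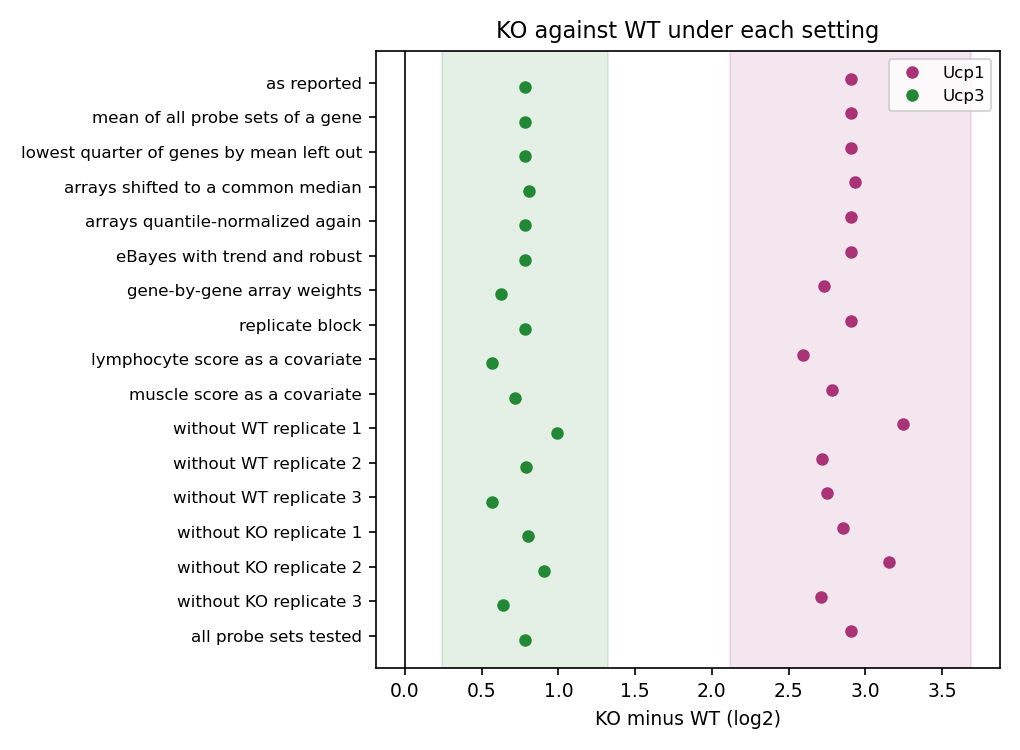
KO minus WT log2 difference of Ucp1 and Ucp3 as reported and under each of 16 alternatives (points), with the 95% limma interval of the reported value (bands). Every point lies above 0 and inside the band of its gene.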

How the data were processed

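RNA of the inguinal fat of 3 WT and 3 KO mice was hybridised, 1 microarray per mouse. Values are the deposited log2 intensities summarized per probe set. The authors' RMA, affy and limma are named without versions, per the submitters' processing notes, and options and genome build are not given in the sources used here. Gene names came from the platform annotation table: of 34760, 21640 had 1 symbol, 1321 several and 11799 none listed. Where a gene had several probe sets (954 genes), the brightest by mean over the 6 arrays stood for it. KO was tested against WT with limma 3.58.1 in R 4.3.3, Benjamini-Hochberg over 19937 genes, two-sided, with no filter on dim genes. The fit was run on simulated data with genes drawn independently. Those data lack the shared differences in cell-type markers seen here, so the run checks the code only. Arrays give no counts, so their number, 3 per group, limits the precision. Quantile normalization within RMA would hide a shift shared by most genes. Limma's p-values set a difference against the spread between mice, moderated across genes. The exact permutation p cannot go below 0.1 with 3 arrays against 3.

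Members, lists, the naming rule and tests were chosen with earlier results of these data known. Named genes were Ucp1, Ucp3, Atf7 and 8 fixed genes. The fixed genes were Ppargc1a, Prdm16, Ppara, Pparg, Adrb3 (not analysed here), Cidea, Dio2 and Pdk4. The 5 most alike genes per member, up to 3 genes of smallest p per list and the nearest measured genes were also named. Others were named as markers. The predicted gene Gm10603 was named as a nearest gene. Plin1, Zic1 and Lhx8 are tissue checks. The repressors Nr1d1 and Twist1 and 7 negative members of 2 lists were named after their values were seen. So were the activator Foxc2 and the antioxidant genes Cat and Sod1. Alternatives were other features, filters, normalizations, variance models, array weights, covariates, a replicate block and each array left out. Same-numbered KO and WT arrays did not deviate together.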

Additional observations from a re-analysis of the deposited data

How the results depend on the processing

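Ucp1 and Ucp3 kept their direction and stayed short of the threshold under all 16 alternatives each. With the replicate block the differences were 2.91 (adjusted p 0.644) for Ucp1 and 0.78 (0.644) for Ucp3, and 2.12 for their contrast. No pairing by replicate number is given in the sources used here. Same-numbered arrays had correlations of -0.14, -0.08 and -0.04 between their deviations, which cannot settle whether the mice were paired. The contrasts with Ucp2 were not run. Of all genes tested, 0 passed the adjusted threshold in the reported limma fit, 1 did with the mean of all probe sets of a gene and 2 probe sets did with all probe sets tested, while 0 did without each array in turn. The number past an unadjusted p of 0.05, 1489 as reported, was 2944 with gene-by-gene array weights, 798 with the lymphocyte score, 929 with the muscle score, 2396 with all probe sets, and 758 to 3757 without each array in turn (758 without KO replicate 1, 789 without WT replicate 3, 3757 without KO replicate 2). Of 46 other named genes run under the alternatives, 9 turned direction under some alternative, in 17 of 733 comparisons. Slc25a14 was 0.092 with the lymphocyte score and -0.16 to 0.050 without each array in turn. With that score Elmod2 was -0.13, Tnfrsf9 0.097 and Tmem26 0.076, with the muscle score Cited1 was 0.050, and Clstn3 was 0.0031 after shifting arrays to one median. Without each array in turn Tmem26 was -0.23 to 0.013, Cited1 -0.28 to 0.33, Clstn3 -0.044 to 0.0024, Cpt1a -0.40 to 0.065 and Acot1 -0.33 to 0.066. Gm10603 was -0.019 with array weights, -0.090 with the lymphocyte score, -0.0013 with the muscle score and -0.049 to 0.10 without each array in turn. Signal over background limits the WT level of Ucp1, which was at the edge of the receptor range in 2 of the 3 WT arrays.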

Other observations

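The spread of the uncoupling protein genes between mice of one genotype was wide. The SD of Ucp1 over the 3 WT arrays was larger than that of 99.1% of genes, and over the 3 KO arrays larger than that of 94.4%. For Ucp3 these shares were 97.5% and 79.6%. An SD over 3 arrays is itself imprecise, and these shares are given as values.

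Antioxidant genes, a group often discussed with Ucp2 and Ucp3, were 8 of 9 positive with a median log2 difference of 0.21. Of the 9, 1 was higher at an unadjusted p under 0.05. Not all are mitochondrial: the list also holds the peroxisomal Cat (-0.10, the only negative member) and the mainly cytosolic Sod1 (0.04). Over all genes 4.99% were higher at that threshold. Without KO replicate 3, 6 of 9 were positive with a median of 0.072, and with the lymphocyte score 4 of 9 with a median of -0.019, with 0 past the threshold in both cases. The gene past it was Txnrd2, a mitochondrial thioredoxin reductase, with a difference of 0.23 (SE 0.09). Sod2, the mitochondrial superoxide dismutase, differed by 0.37 (SE 0.18), with overlapping groups, and by 0.22 without KO replicate 3 and 0.14 with the lymphocyte score. The level of this list was -0.16 in KO replicate 2 and 0.33 in KO replicate 3, with 0.10 in WT replicate 2, so the groups overlapped where those of Ucp3 did not.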
